A study of Mus musculus with 2 samples.

Results

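Luminal progenitors low in Cck and Lalba were described in single cell RNA sequencing data from mouse mammary gland, made as 1 library of control mice (Ctrl) and 1 library of mice given clodronate liposomes (CL). The members are secretory luminal cells chosen from unique molecular identifier counts (UMIs, 1 per captured transcript molecule). Each had at least 10 UMIs of the luminal keratins Krt8 and Krt18, more than of the basal keratins Krt5, Krt14 and Krt17, and no UMI of the leukocyte gene Ptprc. The summed UMIs of Ltf, Wfdc18, Csn3, Aldh1a3 and Plet1 were over 2 times those of Prlr, Areg, Cited1 and Ptn. Of these cells, those with under 3 UMIs of Cck and Lalba and under 5 UMIs of the MHC class II genes Cd74, H2-Aa, H2-Ab1 and H2-Eb1 were kept. The rule found 4183 members among 15632 cells of both libraries, 1668 of 6297 in Ctrl and 2515 of 9335 in CL.

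Both groups were wild-type adult female mice, labelled as 9 to 10 weeks old, with 8 to 10 weeks in the protocol. Clodronate is a drug that kills phagocytes which take up the liposomes, and CL mice received repeated intraperitoneal injections before the glands were collected. The sorted cells lacked CD31 and TER119 by the study's methods, while the series design also names immune cells carrying CD45. The study describes 1 gate for the sequenced cells, live cells without CD31 and TER119, which does not leave out cells carrying CD45. The sources used here do not say whether immune cells were also sorted separately, and they do not give the number of mice per library. With 1 library per group there is no replicate, no test was made between the libraries, and every 95% interval in brackets covers counting error only. The label was checked against 8 macrophage markers: over all kept cells their summed level was 62.0 CPM (counts scaled to a common total of UMIs in each group of cells) in Ctrl and 87.7 CPM in the library labelled CL, while within Ptprc-positive cells it was 2472 and 1299 CPM. Ptprc-positive cells here had at least 1 Ptprc UMI and under 10 UMIs of the rule's luminal and basal keratins together. They were 262 of 6297 kept cells in Ctrl and 922 of 9335 in CL, and are called immune cells below. The level over all cells was not lower in CL and that within Ptprc-positive cells was, and directions below refer to the library labelled CL.

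The mammary epithelium has an outer basal layer of contractile cells and an inner luminal layer. The luminal layer holds hormone-responsive cells, which carry oestrogen and progesterone receptors, and secretory progenitors, which express Kit and Elf5 and give rise to the milk-producing alveolar cells of pregnancy. Progenitors primed for the alveolar fate already transcribe some milk genes in the virgin gland, such as Lalba, a subunit of lactose synthase. Secretory progenitors also release antimicrobial proteins such as lactoferrin (Ltf) and lipocalin 2 (Lcn2), and epithelial cells exposed to interferon gamma raise antigen presentation genes.

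The members made up a like share of secretory luminal cells in both libraries, 60.4% [58.5, 62.2] of 2763 cells in Ctrl and 61.8% [60.3, 63.3] of 4070 cells in CL, a log2 ratio of 0.03 [-0.02, 0.09]. The classes around them did not. Alveolar-primed cells, which met the same limits except that they held 3 or more Cck and Lalba UMIs, were 39.0% of secretory luminal cells in Ctrl and 18.7% in CL (log2 ratio -1.06 [-1.18, -0.95]). Cells with 5 or more MHC class II UMIs were 0.615% and 19.5%, which are 17 and 795 cells. The MHC class II limit therefore took away 10 of 1678 secretory cells low in Cck and Lalba in Ctrl, but 649 of 3164 in CL. Without it, cells low in Cck and Lalba were 60.7% of secretory luminal cells in Ctrl and 77.7% in CL. These shares use fixed UMI limits and so also depend on depth.

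Member cells had a median of 9085 UMIs in Ctrl (from 830 to 68967) and 8592 in CL (from 935 to 77240), with medians of 2719 and 2590 genes and 2.79% and 2.50% mitochondrial UMIs. Their UMIs summed to 18100023 and 26685904. No member barcode occurred in both libraries, against 12 among all kept cells. Of the members, 3.24% in Ctrl and 2.43% in CL stood above the doublet score used as a limit in their library, and these were kept.

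The rule's own genes are given as a description. Members with no Cck or Lalba UMI were 60.4% of members in Ctrl and 70.5% in CL. Just inside the limit, 266 and 231 members held 2 such UMIs, and just outside it 186 and 179 cells held 3. The level of Trf, which encodes the iron carrier transferrin, was 940 CPM inside and 950 CPM outside this limit in Ctrl, and 852 and 770 CPM in CL. At the MHC class II limit, 2 and 55 members held 4 UMIs, and 2 and 42 cells low in Cck and Lalba held 5. Csn3, kappa casein, had 3276 CPM in Ctrl members and 2081 CPM in CL members, and Aldh1a3, a retinaldehyde dehydrogenase, had 2382 and 1983 CPM. Ltf had 1671 and 2296 CPM, Wfdc18, a small secreted protein, had 5430 and 5746 CPM, and Plet1, a surface marker of progenitors, had 6460 and 6810 CPM.

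The name was checked on the 4 given markers that the rule did not use. Fcgbp, which encodes a mucus protein (chr7:28071236-28120862 on GRCm38, plus strand), had 182 CPM in Ctrl members and 228 CPM in CL members, against 5.71 and 9.43 CPM in hormone-responsive cells and 30.8 and 39.4 CPM in empty droplets, whose UMIs are free RNA. Muc15, a membrane mucin (chr2:110721340-110739527, plus strand), had 249 and 172 CPM against 22.8 and 28.8 CPM in basal cells. C2cd4b (chr9:67759437-67760930, plus strand) had 185 and 132 CPM, and was also present in basal cells at 90.8 and 82.7 CPM. Csf3, the granulocyte colony stimulating factor that drives neutrophil production (chr11:98701263-98703629, plus strand), had 316 and 790 CPM against 136 and 317 CPM in empty droplets. All 4 stood above empty droplets in both libraries. The same 4 genes had like levels in alveolar-primed cells, with Fcgbp at 235 and 263 CPM, Muc15 at 219 and 183 CPM, C2cd4b at 173 and 119 CPM and Csf3 at 304 and 639 CPM. They set the members apart from hormone-responsive cells but not from their alveolar-primed neighbours.

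**Figure D1:**
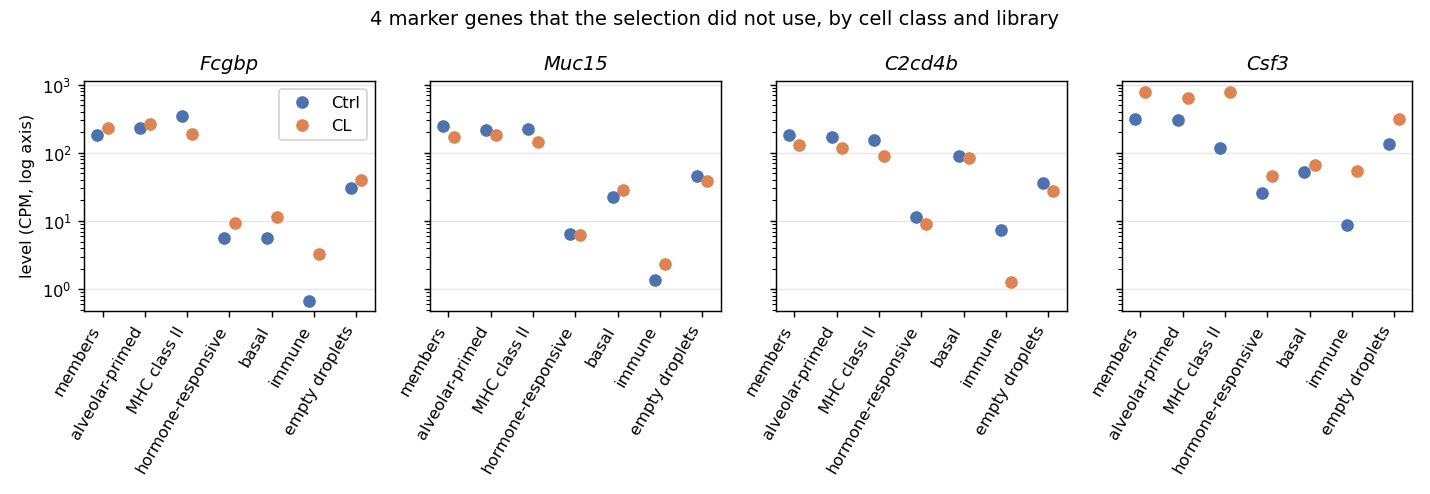
Level in CPM (log axis) of Fcgbp, Muc15, C2cd4b and Csf3 in member cells, 5 other cell classes and empty droplets, 1 point per library. Members lie above hormone-responsive and immune cells, as with Fcgbp at 182 CPM in Ctrl members and 5.71 CPM in Ctrl hormone-responsive cells, while the Ctrl point of the MHC class II cells rests on 17 cells and lies apart from members for Csf3 (117 against 316 CPM) and Fcgbp (348 against 182 CPM).

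Shares of cells with a UMI were compared after thinning each cell to 4907 UMIs, which left 1501 Ctrl and 2273 CL members and left out 167 and 242 shallower ones. Fcgbp was then found in 33.5% [31.1, 36.0] of Ctrl members and 42.1% [40.0, 44.1] of CL members, against 1.51% and 1.52% of basal cells (unthinned 42.1% and 51.5% of members). Muc15 was found in 58.2% [55.7, 60.7] and 48.5% [46.5, 50.6] of members, against 9.64% and 11.4% of basal cells (unthinned 70.1% and 63.5%). Csf3 was found in 23.6% [21.5, 25.8] and 37.4% [35.4, 39.4], against 10.5% and 16.0% of basal cells and 2.78% and 9.83% of immune cells (unthinned 31.3% and 46.2%). Kit, the stem cell factor receptor, was found in 44.9% and 46.5% of members and in 0.904% and 1.52% of basal cells (unthinned 62.1% and 61.0%). Thus Kit and Csf3 UMIs were in a minority of members at this depth, and Csf3 UMIs were also found in cells of other types.

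Most markers of other cell types were below free RNA. Of 5 hormone-responsive, 8 basal, 5 fibroblast, 5 endothelial and 6 T and NK markers, none stood above empty droplets in members of either library. The basal markers summed to 355 CPM in Ctrl members and 239 CPM in CL members, against 1474 and 1450 CPM in empty droplets. They include Krt5, Krt14 and Krt17, which the rule itself limits, so their low sum is in part a result of the selection. The hormone-responsive markers summed to 218 and 276 CPM against 1483 and 1543 CPM. Macrophage markers summed to 20.8 and 19.4 CPM, against 63.6 and 84.1 CPM in empty droplets, with 1 of 8 above them in Ctrl. The 5 alveolar markers summed to 53.1 and 40.4 CPM, against 105 and 109 CPM in alveolar-primed cells and 23.9 and 20.3 CPM in empty droplets. Of these 5, 2 stood above empty droplets in both libraries, and Csn2 and Glycam1 had no UMI in members. Pericyte markers summed to 39.7 and 39.6 CPM against 47.3 and 37.9 CPM in empty droplets, with 1 of 5 above them in CL. Neutrophil markers summed to 3.54 and 10.0 CPM against 5.62 and 65.6 CPM, with 1 of 5 above empty droplets in both libraries, and B cell, dendritic and red cell markers to under 5 CPM each, with 1 of 4 B cell markers above empty droplets in both libraries.

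Surface markers and enzymes of luminal progenitors, leaving out the rule genes Plet1 and Aldh1a3, summed to 955 CPM in Ctrl members and 863 CPM in CL members, a log2 ratio of CL over Ctrl of -0.15 [-0.17, -0.12]. Of these 10 genes, 8 had at least 50 UMIs in a library, and 5 of the 8 were lower and 0 higher beyond counting error, that is, with an interval of the ratio that left out 0. Among all 10978 genes with at least 50 UMIs in a library, 2151 (19.6%) were lower and 1289 (11.7%) higher in CL members by this measure. With the 2 rule genes, which made up most of it, the sum had a ratio of -0.02. Kit was at 149 and 155 CPM. Cd14, the lipopolysaccharide co-receptor, was at 396 and 344 CPM and the tetraspanin Tspan8 at 162 and 133 CPM. The integrin Itga2 was at 77.8 and 63.1 CPM, and Lbp, which binds lipopolysaccharide, at 10.9 and 7.08 CPM. The 18 transcription factors summed to a log2 ratio of 0.01, with 4 higher and 9 lower beyond counting error. Of these factors, 13 had enough counts for the 2-fold rule and 0 were 2-fold apart, a count near the share of all genes tested (0.65% higher and 0.171% lower). Elf5, the regulator of alveolar differentiation, was at 88.7 CPM in Ctrl and 71.7 CPM in CL (log2 ratio -0.31 [-0.40, -0.21]). Sox10 was at 62.6 and 69.1 CPM, and the Notch target Hey1 at 42.9 and 30.6 CPM. Cebpb, which is needed for alveolar development, was at 1330 and 1518 CPM, and Cebpd at 401 and 310 CPM.

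Against alveolar-primed cells the members differed by few genes, with Cst3, Folr1 and Trf among those lower. Among 2775 genes with at least 50 UMIs and 50 CPM in the higher group, 0 (0%) were at least 2-fold higher in members in both libraries and 3 (0.108%) at least 2-fold lower. Of these 3, Cck and Lalba belong to the rule, and the other was Cst3, the protease inhibitor cystatin C (chr2:148871722-148875692, minus strand). Cst3 had 1549 CPM in Ctrl members and 5146 CPM in Ctrl alveolar-primed cells, and 1308 and 5212 CPM in CL (log2 ratios -1.73 [-1.75, -1.71] and -1.99 [-2.01, -1.98]). Folr1, a folate receptor, was at 81.1 and 141 CPM in Ctrl and at 71.0 and 148 CPM in CL. Trf was at 801 and 1384 CPM in Ctrl and at 557 and 989 CPM in CL. Lrg1, an acute phase glycoprotein, was lower in members by log2 ratios of -0.79 in Ctrl and -0.92 in CL, and Apod, a lipid carrier, by -1.21 and -0.78. The chloride channel gene Clic6, the chitinase-like gene Chil1 and the carbonic anhydrase gene Car2 were also lower in both libraries. Alveolar-primed cells were deeper, with medians of 11624.5 and 10870.5 UMIs, and a cell with more UMIs passes a fixed limit of 3 more often. With the limits applied after thinning each cell to 5000 UMIs, 11 genes were 2-fold higher and 7 lower, and Cst3 was at -1.60 as the ratio nearer 0.

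The genes with the highest ratios over alveolar-primed cells, taking the library nearer 0, stayed short of 2-fold in at least 1 library. Cytip, which regulates cell adhesion, had 149 CPM in Ctrl members and 87.4 CPM in Ctrl alveolar-primed cells, and 117 and 65.3 CPM in CL (log2 ratios 0.77 and 0.84). Thbs1, the matrix protein thrombospondin 1 (chr2:118111876-118127133, plus strand), had 1029 against 699 CPM in Ctrl and 518 against 349 CPM in CL. The metalloproteinase inhibitor Timp3 had log2 ratios of 0.54 and 0.79, the homeobox gene Barx2 0.57 and 0.54, and the membrane peptidase Mme 0.49 and 1.03. Sorbs2, Osbpl3, Clmn and Myadm were higher by log2 ratios between 0.57 and 0.68 in both libraries, and the chaperone gene Hspb1 by 0.49 and 0.58. Crip1 had the highest ratio in the library nearer 0, with 0.88 in Ctrl and 0.99 in CL, but its 660 and 648 CPM in members were below the 979 and 894 CPM of empty droplets, as were those of Tagln. Of these 12 genes, 4 had higher levels in basal cells than in members in both libraries, at 2065 CPM for Thbs1, 339 CPM for Timp3, 236 CPM for Mme and 5072 CPM for Tagln in Ctrl basal cells. The 8 basal markers were also higher in members than in alveolar-primed cells, at 355 against 254 CPM in Ctrl and 239 against 165 CPM in CL, and the part of basal RNA in these ratios was not tested.

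The levels of Trf, Btn1a1 and Folr1 were higher in cells with more Cck and Lalba UMIs, without a gap at the limit. In cells with 0, 1 to 2, 3 to 5 and 6 or more such UMIs, Trf was at 726, 901, 1149 and 1536 CPM in Ctrl, and at 485, 710, 830 and 1160 CPM in CL. Btn1a1, butyrophilin of the milk fat globule, was at 41.7, 67.5, 82.7 and 117 CPM in Ctrl and at 33.5, 53.7, 71.8 and 136 CPM in CL. Folr1 was at 68.0, 98.5, 114 and 159 CPM in Ctrl and at 57.8, 98.6, 124 and 174 CPM in CL. These 3 genes were higher in every next group of cells in both libraries, and Trf and Folr1 were already among the genes lower in members than in alveolar-primed cells. The sum of the 6 given markers, mostly the secreted rule genes Wfdc18 and Ltf, ran the other way, from 8213 to 6612 CPM in Ctrl and from 9969 to 6367 CPM in CL. Among the markers, Fcgbp was also higher with more Cck and Lalba UMIs, from 169 to 246 CPM in Ctrl and from 216 to 271 CPM in CL. Csf3 was lower with more of them in CL, from 830 to 568 CPM, and had no single direction in Ctrl (301, 335, 360 and 267 CPM). Median depth moved with the groups, from 8754 to 12652 UMIs in Ctrl and from 8278 to 11505 in CL, and its part in these levels was not tested.

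**Figure D2:**
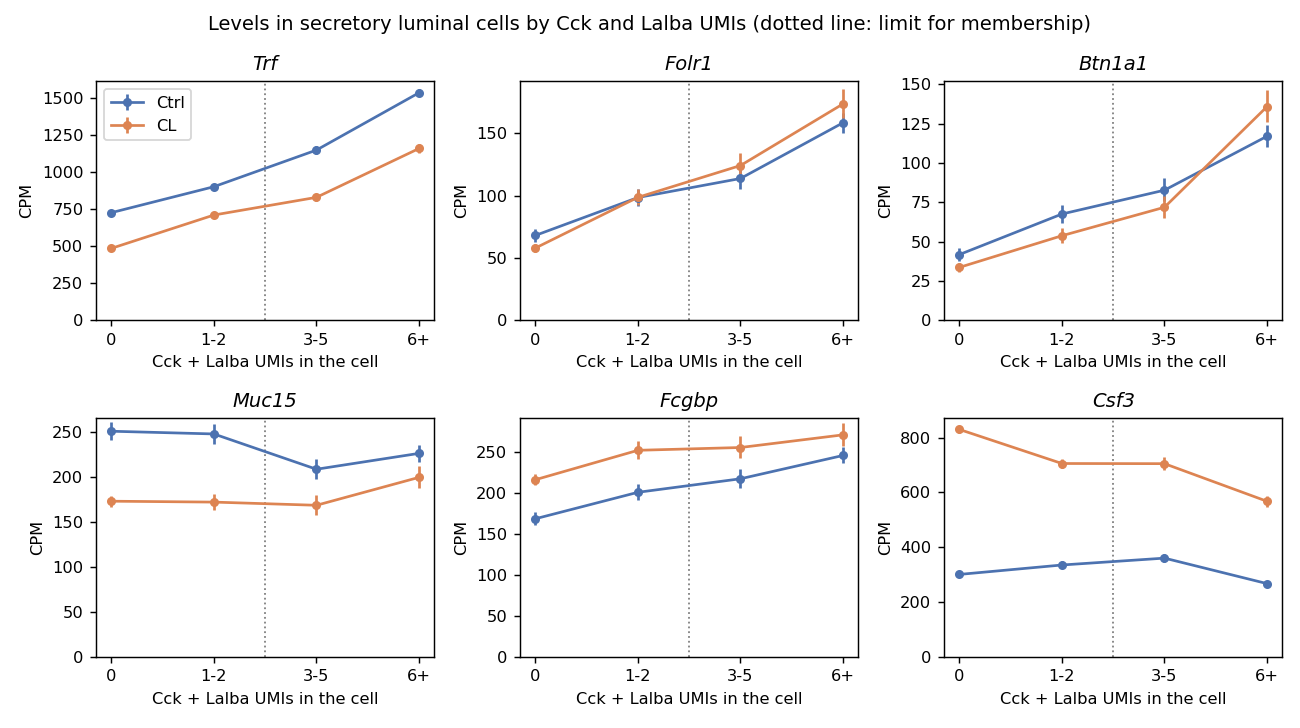
Level in CPM of Trf, Folr1, Btn1a1, Muc15, Fcgbp and Csf3 in secretory luminal cells with under 5 MHC class II UMIs, grouped by their Cck and Lalba UMIs, with 95% counting intervals. Groups left of the dotted line are members, and Trf is higher in each group to the right, from 726 to 1536 CPM in Ctrl and from 485 to 1160 CPM in CL.

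Between the libraries, members labelled CL had higher levels of interferon-inducible and antigen presentation genes, and of Csf3, Cxcl1 and Cxcl2 among neutrophil recruitment genes. Among 2922 genes with enough counts, 19 (0.65%) were at least 2-fold higher in CL members and 5 (0.171%) at least 2-fold lower, and the median log2 ratio was 0.004. The minimum of 50 CPM applied to the higher library only, and Gbp2, Iigp1, Zbp1, Tap1 and Psmb9 were among the 19 that reached it only in CL. Of the 19 genes, 9 belong to MHC class I antigen presentation, 3 to the interferon gamma response list and 2 to the type I interferon list. The others were Csf3, the class I gene H2-Q6, the interferon-inducible genes Ifi27l2a and Ifitm3, and the fibrinogen gene Fgg, the last 2 named here because they complete the count. In CL members, 8 of the 19 were above their level in CL empty droplets, among them Bst2, Csf3, H2-T23, Ifi27l2a, Iigp1, Tap1 and Zbp1. For the other genes the level in empty droplets was as high as in members or higher. Subtracting 10% of free RNA from each library kept 18 of the 19.

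The interferon gamma response list summed to 161 CPM over Ctrl members and 622 CPM in CL members, a log2 ratio of 1.95 [1.90, 2.01]. Of its 24 genes, 23 were in the files and 17 had at least 50 UMIs, of which 15 were higher and 1 lower in CL beyond counting error, against 11.7% and 19.6% of all genes. Only 4 met the minimum for the 2-fold rule, and 3 of these, Gbp2 and Iigp1 among them, were 2-fold higher, against 0.65% of all genes tested. Gbp2 and Iigp1 met the minimum of 50 CPM only in CL, the library where they were high. The median log2 ratio of the list was 2.35. Empty droplets held 235 CPM (Ctrl) and 645 CPM (CL) of the list, so free RNA differed in the same direction.

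Gbp2, an interferon-inducible GTPase of cell-autonomous defence (chr3:142620602-142638008, plus strand), had 17.7 CPM in Ctrl members and 241 CPM in CL members, from 320 and 6418 UMIs (log2 ratio 3.77 [3.60, 3.93]). It was found in 6.20% [5.03, 7.54] of Ctrl members and 34.1% [32.1, 36.1] of CL members after thinning, and in 8.13% and 40.7% of basal cells (unthinned 11.8% and 45.7% of members). The share in Ctrl members was thus at the level of Ctrl basal cells, and the levels in Ctrl and CL members were below the 36.0 and 285 CPM of the empty droplets of their libraries. Gbp3 had 4.86 and 36.7 CPM, above the 2.63 and 14.9 CPM of empty droplets. Iigp1, a GTPase of the same defence, had 7.73 and 53.9 CPM (2.80 [2.55, 3.06]), and the GTPase genes Igtp and Irgm1 had log2 ratios of 2.28 and 1.65. Irf1, an interferon-inducible transcription factor, had 38.7 and 63.7 CPM. Socs1, an inhibitor of the pathway, had 25.9 and 27.6 CPM, within counting error. The T cell chemokine Cxcl9 had 1 UMI in Ctrl members and 55 in CL members (5.22 [2.68, 10.55], but -0.125 with no MHC class II limit), whereas the related Cxcl10 was at 22.3 and 18.8 CPM (log2 ratio -0.24, but 0.80 in members with no Cck or Lalba UMI).

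Receptors and kinases upstream of these genes differed little. Ifngr1 was at 50.7 CPM in Ctrl members and 46.8 CPM in CL members, Ifngr2 at 30.4 and 32.0 CPM, and the kinase gene Jak1 at 136 and 134 CPM. All 3 log2 ratios had intervals that held 0. Jak2 had a log2 ratio of 0.24 [0.06, 0.42]. Il18bp, an inducible inhibitor of interleukin 18, was at 4.48 and 13.0 CPM. The 8 genes of this pathway list, 6 of them with at least 50 UMIs, summed to a log2 ratio of 0.06.

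The promoters of Cxcl9 and Gbp2 are shown, the 2 interferon gamma list genes with the largest ratio and at least 50 UMIs in a library. Cxcl9 reached 50 UMIs only in CL, and its log2 ratio was -0.125 with no MHC class II limit. They are 300 bases of RefSeq sequence on GRCm38.p6, from 250 bases before to 50 after the annotated start, printed 5′ to 3′ on the gene's strand, with motif matches in capitals. Cxcl9 lies at chr5:92328030-92328329 on the minus strand and Gbp2 at chr3:142620413-142620712 on the plus strand.
Cxcl9: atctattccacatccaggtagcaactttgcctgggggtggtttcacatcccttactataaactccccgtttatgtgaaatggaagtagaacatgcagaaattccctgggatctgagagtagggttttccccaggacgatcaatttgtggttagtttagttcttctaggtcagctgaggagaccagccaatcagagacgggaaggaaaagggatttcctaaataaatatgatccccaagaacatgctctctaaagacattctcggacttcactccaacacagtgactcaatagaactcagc
Gbp2: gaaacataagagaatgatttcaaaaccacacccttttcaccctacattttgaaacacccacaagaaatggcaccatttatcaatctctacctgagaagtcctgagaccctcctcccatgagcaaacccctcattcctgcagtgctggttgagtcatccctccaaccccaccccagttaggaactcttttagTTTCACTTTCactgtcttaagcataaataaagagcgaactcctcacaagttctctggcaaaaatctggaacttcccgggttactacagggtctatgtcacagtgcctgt
Both strands were searched for the GAS motif TTCNNNGAA, the interferon gamma activated site, and for the ISRE core (GAAA, any 2 bases, GAAA), bound by interferon regulatory factors, and a base could count for both. Gbp2 held 1 ISRE core on the reverse strand, read as TTTCACTTTC, from 59 to 50 bases before the start, and no GAS motif. Cxcl9 held neither in this window. Of 18 promoters of the 15 list genes found in the table, of 24 in the list, 7 (38.9%) held a GAS motif and 10 (55.6%) an ISRE core, against 8.30% and 3.44% of all 32851 promoters. A match describes the letters only, and binding was not measured.

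The MHC class I and antigen processing list summed to 2675 CPM in Ctrl members and 5284 CPM in CL members, a log2 ratio of 0.98 [0.97, 1.00]. All 16 genes were higher in CL beyond counting error, against 11.7% of all genes, and 9 of the 14 tested were 2-fold higher, against 0.65% of all genes tested. Among the genes counted, H2-Q7 (35.1 and 144 CPM), Psmb9, Psmb10 and Tap1 reached the minimum of 50 CPM only in CL. They were thus tested only through the library where they were high. B2m, the light chain of class I molecules, had 219 and 526 CPM, and the heavy chain genes H2-K1 and H2-D1 had 956 and 1915 CPM and 761 and 1209 CPM. Of the peptide transporter, Tap1 had 18.7 and 61.5 CPM. The immunoproteasome subunits Psmb8, Psmb9 and Psmb10 had log2 ratios of 1.37, 1.92 and 1.36. Reads of the H2 genes may be shared between near-identical copies, and Psmb9 and Tap1 overlap on opposite strands. Empty droplets held 4398 and 6073 CPM of this list, above the members in both libraries.

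**Figure D3:**
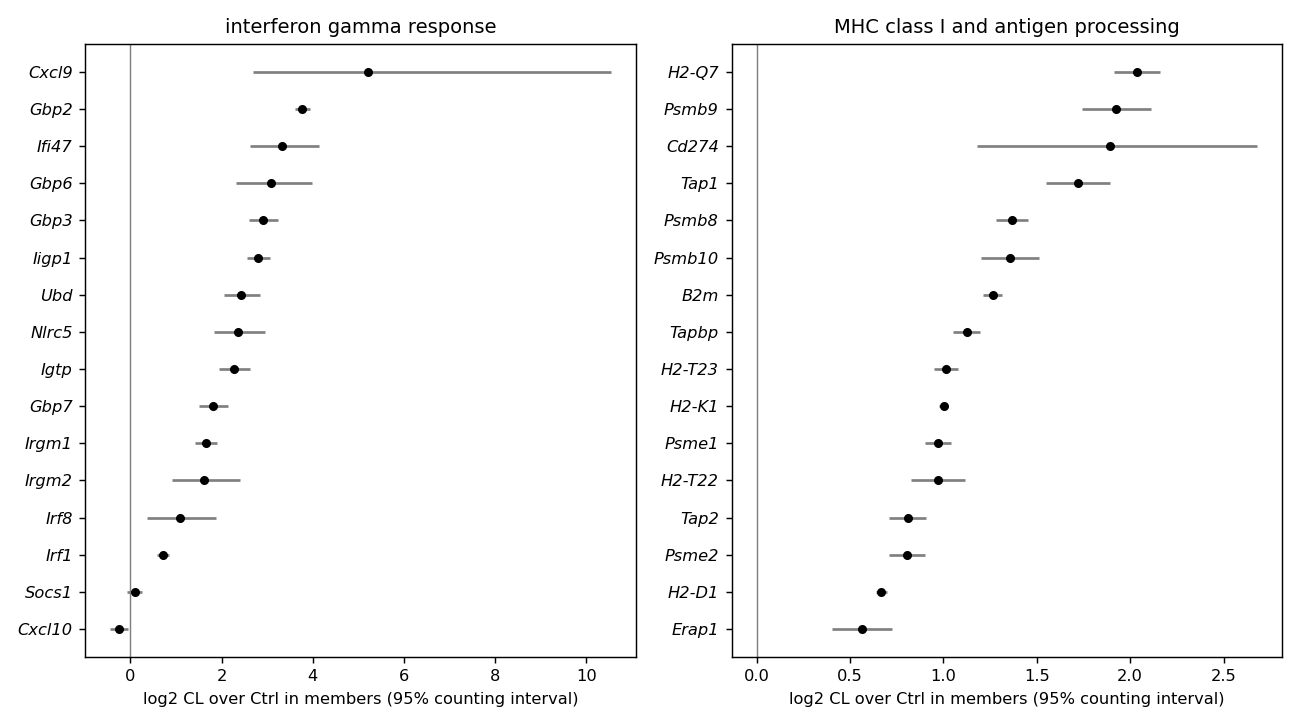
Log2 ratio of CL over Ctrl in members for genes with at least 50 UMIs in either library, interferon gamma response list (1 gene not shown) on the left and MHC class I and antigen processing list on the right, with 95% counting intervals. The right panel lies above 0 throughout, and on the left Cxcl10 lies below 0 (above it, at 0.80, in members with no Cck or Lalba UMI) and the interval of Socs1 crosses it.

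The type I interferon list summed to 262 and 538 CPM (log2 ratio 1.04 [0.99, 1.09]), but its members divided. Higher in CL were Zbp1, a sensor of nucleic acids, with 11.4 and 50.3 CPM, Irf7, with 14.4 and 49.3 CPM, and Bst2, a tether of enveloped virus particles, with 71.9 and 198 CPM. Ifit1, Ifit3 and Rsad2, classic antiviral genes, had log2 ratios of -0.15, -0.01 and -0.02 with intervals that held 0. Ifit2 had 5.52 and 2.70 CPM, a ratio that was 0.039 in members with no Cck or Lalba UMI. In all, 9 of 16 were higher and 1 lower beyond counting error, against 11.7% and 19.6% of all genes.

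Because the rule caps MHC class II UMIs, the interferon genes were also compared within members of equal MHC class II UMIs. Among members with no such UMI, 1360 in Ctrl and 1568 in CL, the interferon gamma list had a log2 ratio of 1.88 [1.81, 1.94], Gbp2 3.65 [3.47, 3.84] and the class I list 0.96 [0.94, 0.98]. With 1 UMI the interferon gamma list had 2.20 and with 2 to 4 UMIs 1.66. The group with 2 to 4 UMIs held 41 cells in Ctrl, and its values lay on both sides of those over all members. Gbp2 had 3.94 and Irf1 1.12 [0.45, 1.87] there, with Iigp1 at 0.13 [-0.38, 0.67], the type I interferon list at 0.31 [0.13, 0.49] and the neutrophil recruitment list at 0.26 [0.18, 0.34]. The difference was therefore present in members without MHC class II UMIs. At the limit itself, Gbp2 had 251 CPM in CL members with 4 UMIs and 712 CPM in the CL cells with 5.

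Within members, interferon gamma list UMIs were unevenly spread. After thinning, 58.3% of Ctrl members and 29.4% of CL members had none of them. The median member held 0 in Ctrl and 1 in CL, the member at the 99th percentile 5 and 28, and the highest 56 and 68.

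The neutrophil recruitment list summed to 1932 CPM in Ctrl members and 3059 CPM in CL members, a log2 ratio of 0.66 [0.64, 0.68]. Csf3, Cxcl1 and Cxcl2 made up most of it, and of 7 genes with at least 50 UMIs these 3 were higher and 1 was lower beyond counting error, against 11.7% and 19.6% of all genes. Csf3 was higher, at 316 and 790 CPM (1.32 [1.28, 1.37]), and was the 1 gene of 4 tested in the list past 2-fold, against 0.65% of all genes tested. Cxcl1 and Cxcl2, neighbouring genes for chemokines that attract neutrophils (chr5:90891241-90893115 and chr5:90903871-90905938, both plus strand), had 636 and 917 CPM and 641 and 1060 CPM. Lif, a cytokine of the interleukin 6 family, was lower, at 324 and 277 CPM. Il23a, Cxcl3 and Cxcl5 were under 10 CPM in both libraries, with intervals of the ratio that held 0. The list was above empty droplets, at 820 and 1129 CPM, in both libraries, and Csf3 in empty droplets was itself higher in CL.

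**Figure D4:**
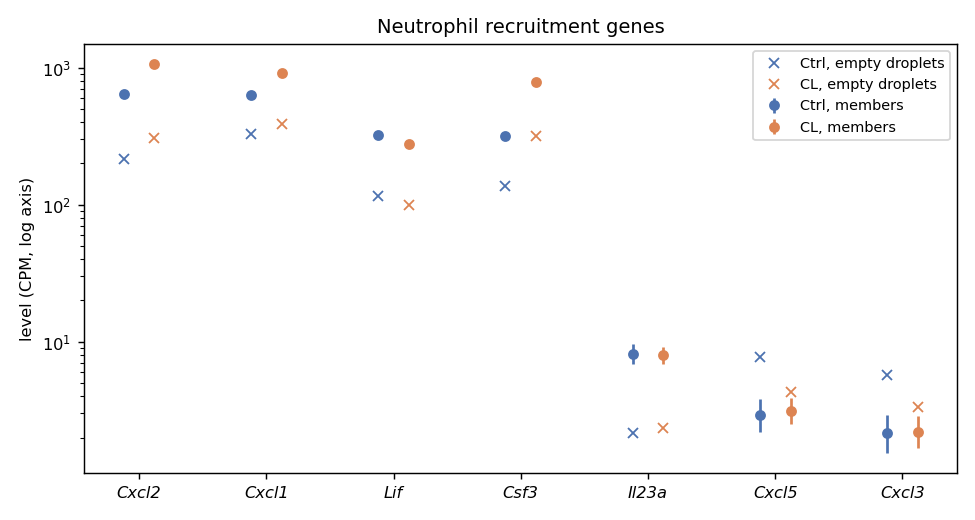
Level in CPM (log axis) of neutrophil recruitment genes with at least 50 UMIs in either library, in members (circles, 95% counting intervals) and in empty droplets (crosses). Csf3, Cxcl1 and Cxcl2 are higher in CL members than in Ctrl members, Lif is lower, and these 4 lie above empty droplets.

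Few members carried most of these transcripts. The tenth of members with most neutrophil list UMIs held 53.5% of them in Ctrl and 52.9% in CL, while 21.9% and 16.8% of members had none. By the lower of the 2 libraries, Cxcl2 had the highest variance over mean of 4913 genes compared, 31.3 in Ctrl and 47.6 in CL, where the median gene had 1.08 and 1.07, and Csf3 had 20.5 and 26.5. Cst3, with 20.4 and 24.0, and Lcn2, with 17.6 and 18.4, were also among the 12 most variable, as were the immediate early genes Fos and Atf3 and the fibroblast gene Dcn. Cxcl1 and Cxcl2 went together over cells (Spearman rho 0.39 in Ctrl and 0.41 in CL), more loosely with Csf3 (0.20 and 0.23 for Cxcl1), and Csf3 ran slightly against Kit (-0.11 and -0.12). Ltf and Wfdc18, both rule genes, had 0.34 and 0.40. These values are over 1501 and 2273 thinned cells that share a library, and are a description.

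Milk genes other than the rule gene Csn3 had like sums, 2093 CPM in Ctrl members and 2088 CPM in CL members (log2 ratio -0.00 [-0.02, 0.02]). With Csn3 the list summed to 5369 and 4169 CPM. Of the others, Spp1, the matrix protein osteopontin, had 21.5 and 10.1 CPM and Btn1a1 had 52.8 and 40.1 CPM, whereas Mfge8, a milk fat globule protein, had 1605 and 1654 CPM. Of the 7 genes other than Csn3 with at least 50 UMIs, 1 was higher and 4 were lower beyond counting error, against 11.7% and 19.6% of all genes. Of the 5 tested 0 were 2-fold apart, a count near the share of all genes tested (0.65% higher and 0.171% lower). The sum of antimicrobial secretions was higher, at 6991 and 8607 CPM (0.30 [0.29, 0.31]). Lcn2, which binds bacterial siderophores, made up most of them with 6122 and 7638 CPM, above the 2141 and 3031 CPM of empty droplets. Cp, the copper carrier ceruloplasmin, had 223 and 310 CPM, and Pigr, which carries immunoglobulin A into milk, had 5.64 and 12.8 CPM. Lrg1 was lower, at 289 and 202 CPM, and Defb1, a defensin, had 9.50 and 1.84 CPM. Of 10 genes of this list with at least 50 UMIs, 6 were higher and 3 lower beyond counting error, against 11.7% and 19.6% of all genes. Of the 5 tested 0 were 2-fold apart, again near the share of all genes tested.

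The 5 genes at least 2-fold lower in CL members were Gpx3, Fxyd2, Ido1, Krt14 and S100g, the last 2 named to complete the count. Krt14 is a basal keratin that the rule limits, so it is not a value independent of the selection. Of these 5, 2 stayed 2-fold lower with 10% of free RNA subtracted, and 3 without the highest doublet scores. Gpx3, an extracellular glutathione peroxidase, had 93.6 and 26.5 CPM in members, but 695 and 145 CPM in empty droplets and 1203 and 282 CPM in hormone-responsive cells. Fxyd2 and Ido1 were likewise at 102 and 64.2 CPM in Ctrl members against 624 and 382 CPM in Ctrl empty droplets. Without the highest doublet scores their log2 ratios went from -1.19 and -1.07 to -0.77 and -0.37, and Gpx3 went from -1.82 to -1.0005 with 10% of free RNA subtracted. S100g, a calcium-binding protein, was the 1 gene of the 5 above Ctrl empty droplets, with 85.4 and 37.1 CPM in members and 12.4 and 8.74 CPM in droplets. Thbs1 lay just short of 2-fold, at 1029 and 518 CPM (log2 ratio -0.99 [-1.02, -0.96]), above the 488 and 303 CPM of empty droplets. It was lower by as much in alveolar-primed cells (699 and 349 CPM) and had a ratio of -0.01 [-0.06, 0.04] in basal cells. Adamts1, a matrix protease, had 142 and 90.1 CPM, the lipid desaturase gene Scd1 143 and 86.9 CPM, and Clic6 100 and 63.1 CPM, all above empty droplets. Apoe, Stmn1, Mtss1, Agps and Hist1h1c were also among the 12 lowest ratios, with log2 values from -0.67 to -0.77, and were below empty droplets in both libraries. Agps turned to 0.07 with 10% of free RNA subtracted.

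Division genes were scarce. Their list summed to 244 and 209 CPM (log2 ratio -0.22 [-0.28, -0.17]), mostly Pcna, the replication clamp, at 156 and 157 CPM. Of 12 genes with at least 50 UMIs, 9 were lower in CL beyond counting error, against 19.6% of all genes. Mki67 had 6.46 and 3.11 CPM, Ube2c 8.29 and 2.17 CPM and Cenpf 4.59 and 1.09 CPM. In Ctrl empty droplets these 3 genes were at 6.44, 44.2 and 9.16 CPM.

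For the interferon gamma, class I and neutrophil lists, members lay between hormone-responsive and basal cells in the same contrast. The interferon gamma list had a log2 ratio of 2.05 [1.97, 2.12] in alveolar-primed cells, 2.50 [2.41, 2.60] in basal cells and 0.51 [0.47, 0.54] in hormone-responsive cells, against 1.95 in members. The class I list had 0.88, 1.17 and 0.21, against 0.98 in members. The neutrophil list had 0.30 [0.28, 0.32] in alveolar-primed cells, 0.75 [0.65, 0.85] in basal cells and 0.35 [0.32, 0.39] in hormone-responsive cells, against 0.66 in members. In cells with 5 or more MHC class II UMIs, only 17 of them in Ctrl, the 3 lists had -0.86 [-0.95, -0.78], 0.80 and 0.27. For the NF-kB list members had 0.11 and these 4 classes from -0.12 to 0.09. Immune cells differed, with the interferon gamma list at -0.03 [-0.10, 0.04] and the class I list at -0.11. Their neutrophil list was at -1.17 [-1.22, -1.12] and their NF-kB list at -0.34. All classes come from the same 2 libraries, so these values share any difference between the libraries, and no test of a difference between classes was possible.

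**Figure D5:**
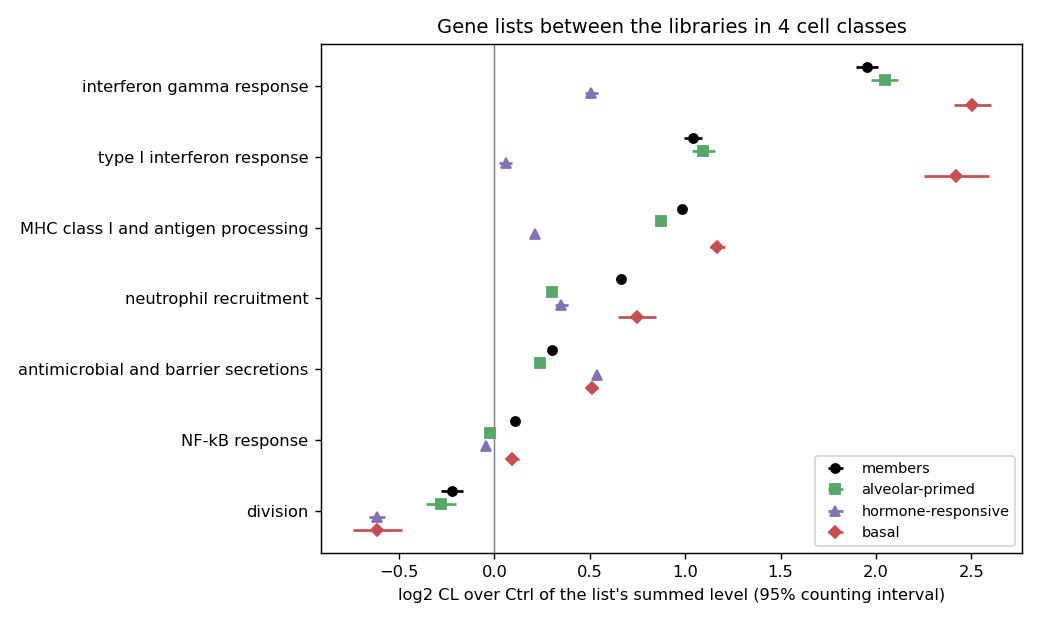
Log2 ratio of CL over Ctrl of the summed level of 7 gene lists in members, alveolar-primed, hormone-responsive and basal cells, with 95% counting intervals. For the interferon gamma list members (1.95) lie near alveolar-primed cells (2.05), below basal cells (2.50) and above hormone-responsive cells (0.51).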

How the data were processed

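Single cell 3′ libraries of 1 Ctrl and 1 CL sample were analysed, 118743318 and 155765480 UMIs in all. The deposited values are raw UMI counts from Cell Ranger (version 4 per the file headers, 2.1.1 in the submitters' processing notes, which name mm10), as unfiltered matrices of 32285 genes, empty droplets included and not normalized. The deposited barcode lists did not index the matrix columns, so the 7217 and 10555 barcodes richest in UMIs, 1 for each entry listed, were taken as candidates, and those with at least 500 genes and at most 15% mitochondrial UMIs were kept. Barcodes of 100 to 300 UMIs were empty droplets.

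UMIs were summed over members and divided by all their UMIs (CPM). Ratios have exact conditional binomial intervals, levels exact Poisson and shares Clopper-Pearson intervals, all at 95%, and the log2 ratio of 2 shares a Katz interval. "Beyond counting error" means an interval without 0. A gene was tested against the 2-fold rule with at least 50 UMIs and 50 CPM in the higher group. UMIs of cells of 1 library are not replicates, so no p-value is given. Doublets were scored with Scrublet in scanpy 1.11.5. Its automatic threshold marked 360 Ctrl cells and 0 CL cells, where it had not worked. The limit was instead set in each library from the 6% highest scores of its own kept cells. It left 360 Ctrl cells and 509 CL cells above it, and these cells were kept.

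Named genes are members of 19 fixed lists and the 12 highest and lowest ratios of each comparison, leaving out sex-linked, haemoglobin, ribosomal, mitochondrial and unnamed genes, rule genes and markers of other cell types. The value of 1 gene of the interferon gamma response list is not given here; sums and counts include it. Members and lists were chosen with earlier results of these data known. Positions are from GENCODE M21 (GRCm38). Scripts were tested on simulated data. Alternatives changed cell filters, the limits of the rule, free RNA and scaling, with TMM factors from edgeR 4.0.16. Software was Python 3.11.15 and R 4.3.3.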

Additional observations from a re-analysis of the deposited data

How the results depend on the processing

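Across 98 alternative values of the main results 71 stayed within their limits and 27 moved. The members' share of secretory luminal cells had a log2 ratio of 0.256 with no Cck or Lalba UMI allowed, -0.097 with under 6 allowed, -0.133 with under 2 MHC class II UMIs, 0.356 with no MHC class II limit and -0.043 with the rule applied after thinning to 5000 UMIs, so its sign depends on the limits. Genes 2-fold higher in CL were 33 with no MHC class II limit and 7 with a minimum of 200 CPM. Genes 2-fold lower were 3 when the secretory sum had to exceed 4 times the hormone-responsive sum and 0 with a minimum of 200 CPM. Against alveolar-primed cells, 11 genes were higher and 7 lower after the thinned rule, and 1 was higher with 10% of free RNA subtracted. The neutrophil list had 0.629 without high doublet scores, 0.688 and 0.626 with Cck and Lalba at 0 and under 6, 0.718 and 0.609 with under 2 and with unlimited MHC class II UMIs, 0.636 with the secretory sum over 4 times the hormone-responsive sum, 0.610 after the thinned rule, 0.580 when CPM was averaged over cells and 0.721 with TMM factors. The interferon gamma list had 2.05 with Cck and Lalba at 0, 2.22 with no MHC class II limit, 2.16 after the thinned rule, 2.14 averaged over cells, 2.01 with TMM factors and 2.02 with free RNA subtracted. Of 181 genes of the lists or named that lay beyond counting error, 17 turned in sign under some alternative. Of these, 3 were 2-fold apart in the main values, namely Ifit2 with Cck and Lalba at 0 (0.039), Cxcl9 with no MHC class II limit (-0.125) and Slc5a5 with free RNA subtracted (0.047). Among the rest were Cxcl10 (0.795 with Cck and Lalba at 0, 0.411 averaged over cells), Agps (0.075) and Wfdc2 (0.47 to -1.80) with free RNA subtracted, and Jag1 (-0.45 to 0.27) without high doublet scores. The monocyte and T cell chemokine list turned when averaged over cells (-0.045) and the progenitor surface list with TMM factors (0.037). Sums without the genes of the rule, an alternative chosen after seeing the data, took the milk list from -0.37 to -0.00. The causes were not tested. No paired analysis was possible because each group has 1 library, and for the same reason no replicate could be left out.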

Other observations

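Several further gene groups had summed levels that differed little between members of the 2 libraries. The EGF family and receptor list had a log2 ratio of -0.09 [-0.11, -0.06], mostly Hbegf, a ligand of the EGF receptor, at 1105 CPM in Ctrl and 1040 CPM in CL. Of its 9 genes with at least 50 UMIs, 4 were lower and 1 higher beyond counting error, against 19.6% and 11.7% of all genes. The neuregulin gene Nrg1 was at 32.5 and 37.6 CPM, and Btc, betacellulin, at 13.8 and 9.56 CPM. The Notch and Wnt list had -0.17 [-0.20, -0.14], with the target Hes1 at 696 and 629 CPM, the receptor Notch2 at 49.0 and 36.4 CPM, and the ligands Wnt5b at 114 and 85.9 CPM and Wnt5a at 11.8 and 6.18 CPM. Of its 14 genes with at least 50 UMIs, 8 were lower and 1 higher beyond counting error. The luminal keratin and tight junction list had 0.00, with 7 of 15 genes lower and 3 higher beyond counting error, Ocln, occludin, at 133 and 106 CPM and Krt19 at 1736 and 1672 CPM.

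The NF-kB response list had a log2 ratio of 0.11 [0.09, 0.12], with Nfkbia, the inhibitor of NF-kB, at 1283 and 1543 CPM and 8 genes higher and 1 lower beyond counting error, against 11.7% and 19.6% of all genes. The list of monocyte and T cell chemokines and growth factors had 0.09 [0.05, 0.13], with Cxcl16 at 114 and 130 CPM, Tnf at 58.3 and 66.6 CPM, Csf1 at 84.0 and 92.5 CPM and the alarmin Il33 at 4.14 and 1.95 CPM. Its sum lay below empty droplets in both libraries (488 against 734 CPM in Ctrl, 520.5 against 1097 CPM in CL). Immediate early genes, which dissociation can induce, had -0.08, with 5 genes higher and 13 lower beyond counting error and Fos at 2246 and 1913 CPM. The survival and stress metabolism list had -0.00 [-0.02, 0.01]. Of its 13 genes tested, 1, Gpx3, was 2-fold lower, against 0.171% of all genes tested. Gpx3 lay below empty droplets in both libraries (93.6 against 695 CPM in Ctrl). Gadd45a, a DNA damage gene, was at 177 and 127 CPM and the cell cycle inhibitor Cdkn1a at 593 and 677 CPM.

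The hormone-responsive gene list had 0.05 in members. It lay below empty droplets in both libraries there (7386 against 14133 CPM in Ctrl, 7671 against 16442 CPM in CL). Its gene Aoc1, a diamine oxidase, had the lowest ratio of the list, at 31.8 and 2.06 CPM in members (-3.95 [-4.38, -3.55]), 353 and 21.3 CPM in hormone-responsive cells and 256 and 12.3 CPM in empty droplets.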
